A study of Mus musculus with 4 samples.

Results

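Fibroblast and interstitial matrix markers were described in mouse left hemi-diaphragm, in the band of muscle that holds the neuromuscular synapses and in muscle away from it. The genes were Pdgfra, Dcn, Lum, Dpt, Mfap5, Postn, Fbn1, Pi16, Fap and Cytl1, taken by the symbol of the array's annotation. Of these 10 genes, 9 had a probe set, a group of short probes against 1 transcript, and these genes were read by 14 of the 45101 probe sets. Fbn1, which encodes the microfibril protein fibrillin-1, was not analysed here. The genes were selected on their difference in log2 intensity between the regions on these same arrays, together with their known roles, and Pi16 and Cytl1 were known to be lower in the synaptic region. Their values in this comparison are thus given as a description with no test.

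Total RNA of the synaptic region was measured on 2 arrays and set against total RNA of the non-synaptic region, also on 2 arrays. Strain, genotype, age, sex and any treatment of the mice are not stated in the labels, nor is how the strips were cut or whether several animals were pooled. The titles of the arrays end in a number, 1 or 2, which both regions carry, and the labels explain neither the number nor whether separate mice were used for the arrays of 1 region. The spread between arrays may thus be technical.

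Fibroblasts of skeletal muscle lie between the fibres and around the bundles, and they lay down the collagen, proteoglycan and microfibril network that carries force and holds nerves and vessels. Their lineage is marked by Pdgfra, the alpha receptor for platelet-derived growth factor, which is also carried by the fibro-adipogenic progenitors that can form fat or scar in muscle. Around that network sit small proteoglycans such as decorin and lumican that coat collagen fibrils, and microfibrils that scaffold elastic fibres.

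The muscle and the dissection were checked first. All 8 muscle fibre markers were measured, and Acta1, the actin of the sarcomere, had an intensity from 161925 to 175220 on the synaptic arrays and from 153315 to 180767 on the non-synaptic arrays. Their median region difference was 0.02, and 1 of the 8 had its synaptic arrays below both others, against 9.98% of all probe sets. That gene was Myh4, which encodes a fast-fibre myosin heavy chain, with 32001 and 40267 in the synaptic region, against 85890 and 93886 in the non-synaptic region, at a log2 difference of -1.32 ± 0.18. It did not pass the limma test (adjusted p = 0.492). It was the 1 muscle fibre marker with an unadjusted limma p under 0.05, which 0.332% of all probe sets reached in the lower direction. Chrna1, the alpha subunit of the acetylcholine receptor, had 9702 and 8633 in the synaptic region and 2345 and 2343 in the non-synaptic region. Chrne and Ache were also higher on both synaptic arrays. None of these 3 genes passed the limma test, at an adjusted p of 0.198 for Chrna1, 0.165 for Ache and a higher one for Chrne. Arrays that share a number were more alike than arrays that share a region. The median absolute log2 difference over 26480 measured probe sets was 0.204 between the arrays numbered 1 and 0.158 between the arrays numbered 2, against 0.351 within the synaptic and 0.298 within the non-synaptic region. Over the same probe sets, 71.7% differed more between the numbers than between the regions.

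Sequences upstream of the start site are shown for Cytl1, Pi16 and Dpt because they were the 3 genes whose synaptic arrays both lay below both non-synaptic arrays. They come from RefSeq on GRCm38.p6, cover 250 bases before to 50 bases after an annotated start, and lie at chr5:37735269-37735568, chr17:29318632-29318931 and chr1:164796413-164796712, all on the plus strand. Capitals mark TATAAA or TATTTAA, searched on both strands.
Cytl1: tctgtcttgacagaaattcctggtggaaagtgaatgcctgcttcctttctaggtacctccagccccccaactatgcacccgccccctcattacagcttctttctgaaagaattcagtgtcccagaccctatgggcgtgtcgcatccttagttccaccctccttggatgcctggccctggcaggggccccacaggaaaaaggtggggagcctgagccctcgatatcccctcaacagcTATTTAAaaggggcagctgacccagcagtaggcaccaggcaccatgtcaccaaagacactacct
Pi16: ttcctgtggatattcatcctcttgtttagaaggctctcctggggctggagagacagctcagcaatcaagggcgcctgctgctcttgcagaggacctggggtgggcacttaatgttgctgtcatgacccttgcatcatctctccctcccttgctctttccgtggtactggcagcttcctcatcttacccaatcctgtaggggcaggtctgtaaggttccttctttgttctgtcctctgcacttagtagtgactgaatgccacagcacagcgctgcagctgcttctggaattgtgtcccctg
Dpt: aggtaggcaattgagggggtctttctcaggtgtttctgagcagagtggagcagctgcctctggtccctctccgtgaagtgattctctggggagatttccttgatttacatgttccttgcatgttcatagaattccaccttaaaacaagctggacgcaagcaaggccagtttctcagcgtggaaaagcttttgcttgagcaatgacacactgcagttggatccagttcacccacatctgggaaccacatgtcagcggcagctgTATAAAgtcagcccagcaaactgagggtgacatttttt
TATTTAA, chosen for the search after the Cytl1 sequence was read, began 14 bases before the annotated start of Cytl1 and was found in 4.51% of 32851 mouse promoters. TATAAA began 12 bases after the annotated start of Dpt and was found in 13.6% of them. Neither stood in the Pi16 window, and these matches are descriptions of the letters only. Windows were found for 6 of the 10 genes, and TATAAA also stood in a window of Postn, beginning 26 bases before an annotated start.

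Of the receptor and enzyme genes at the fibroblast surface, Pdgfra and Fap did not separate the regions. Pdgfra had an intensity of 6556 and 9411 on the synaptic arrays, against 7597 and 9708 on the non-synaptic arrays. The ranges overlapped, and in both regions the array numbered 2 was the higher. The mean was 7984 ± 2019 in the synaptic and 8652 ± 1493 in the non-synaptic region (SD, n = 2), a log2 difference of -0.13 ± 0.26 (SE of the fit). Fap, a serine protease of activated fibroblasts, had 4450 and 7673 in the synaptic region, against 4267 and 7791 in the non-synaptic region. Its arrays overlapped almost completely, at a log2 difference of 0.02 ± 0.41.

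Lum and Dcn encode small leucine-rich proteoglycans that bind collagen fibrils, and the genes lie next to each other in the mouse genome. Lum had an intensity of 11138 and 29458 on the synaptic arrays, against 12305 and 27083 on the non-synaptic arrays. The arrays numbered 2 were the high ones in both regions, and the region difference was -0.01 ± 0.58 on the log2 scale. Dcn ran the other way between numbers, with 98319 and 85038 in the synaptic region, against 86245 and 72090 in the non-synaptic region. The lower synaptic array stood below the higher non-synaptic array, so the ranges overlapped, and the log2 difference was 0.21 ± 0.17. These neighbours thus had opposite differences between the array numbers, 1.27 for Lum and -0.23 for Dcn as log2 of number 2 minus number 1.

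Among the genes of the fibrillar and elastic network, Dpt was lower in the synaptic region and Mfap5 and Postn overlapped. Dpt encodes dermatopontin, a small protein that binds decorin and collagen, and it had 22609 and 25906 on the synaptic arrays, against 27119 and 31125 on the non-synaptic arrays. Both synaptic arrays were below both others, by a small margin, at a log2 difference of -0.26 ± 0.17. Quantile normalization brought the Dpt arrays into overlap. Mfap5, a glycoprotein of microfibrils, had 8991 and 16936 in the synaptic region, against 12684 and 22087 in the non-synaptic region. Its log2 difference was -0.44 ± 0.41, and the array numbered 2 of the synaptic region exceeded the array numbered 1 of the other region. Postn, which encodes the matricellular protein periostin, had 13965 and 26734 in the synaptic region, against 18044 and 31504 in the non-synaptic region, with the same overlap and a log2 difference of -0.30 ± 0.41.

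The arrays of Pi16 and Cytl1 fell by region. Pi16 encodes a secreted protein of the CAP family known as a marker of adventitial fibroblasts, and it had an intensity of 1487 and 1738 on the synaptic arrays, against 3365 and 3145 on the non-synaptic arrays. The arrays did not overlap, and the 2 arrays of a region lay close together. The mean was 1612 ± 177 in the synaptic and 3255 ± 155 in the non-synaptic region (SD, n = 2), 2.02-fold lower, at a log2 difference of -1.02 ± 0.22. Cytl1 encodes a small secreted protein known from cartilage and is not a defining marker of fibroblasts. It had 445 and 389 in the synaptic region, against 1588 and 1802 in the non-synaptic region, again without overlap. The mean was 417 ± 39.0 in the synaptic and 1695 ± 151 in the non-synaptic region (SD, n = 2), 4.07-fold lower, at a log2 difference of -2.02 ± 0.28. Cytl1 passed the filter on low values through its non-synaptic arrays, since its mean synaptic log2 value of 8.70 lay under the filter at 8.87. In whole pieces of tissue, fewer cells of a type and less RNA per cell cannot be told apart.

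**Figure D1:**
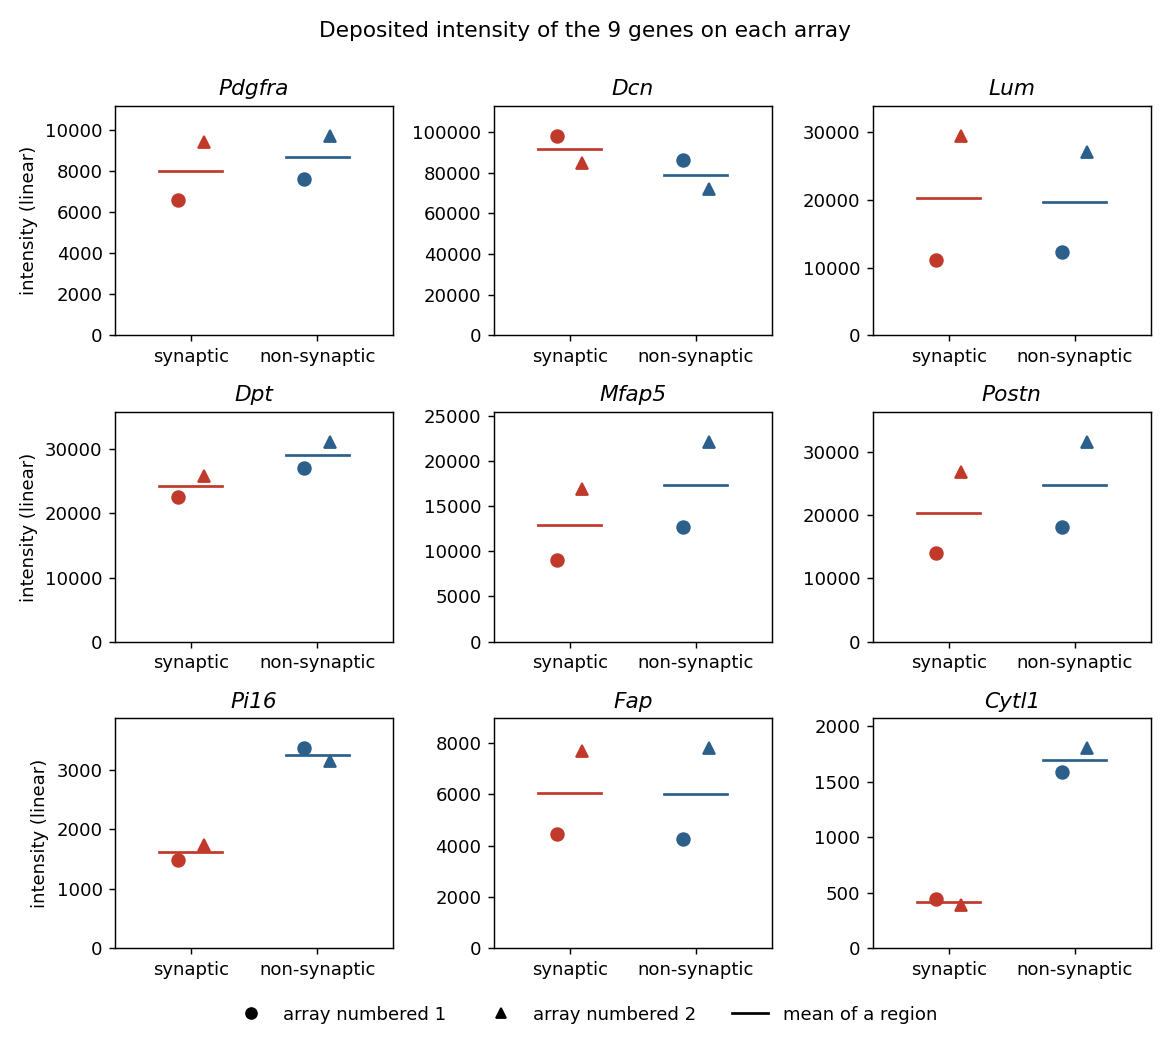
Deposited intensity (linear, y axis) of each of the 9 genes on the synaptic and non-synaptic arrays (x axis), read from the brightest probe set of the gene, with circles for arrays numbered 1, triangles for arrays numbered 2 and a line at the mean of a region. Cytl1 and Pi16 split by region, and Dpt does so by a small margin. Lum, Fap, Postn, Mfap5 and Pdgfra split by array number, with number 2 higher, and Dcn splits by number with number 2 lower.

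Over the 9 genes, the synaptic arrays both lay below both others for 3 and above them for 0, and the median log2 difference was -0.26. Among all 26480 probe sets measured, 9.98% lay below in this way and 9.89% above, and the median difference was -0.01. Because the genes were chosen with this comparison known, nothing is read from the count. It was 7 without the synaptic array numbered 2 and 7 without the non-synaptic array numbered 1. The median also depended on single arrays. Without the synaptic array numbered 1 it was 0.11, and without the synaptic array numbered 2 it was -0.71. Without the non-synaptic array numbered 1 it was -0.58, and without the one numbered 2 it was 0.05. The difference of Cytl1 stayed between -2.12 and -1.93, that of Pi16 between -1.13 and -0.90, that of Dpt between -0.36 and -0.16 and that of Dcn between 0.08 and 0.34 when each array was left out in turn. Pdgfra, Lum, Mfap5, Postn and Fap changed sign. With 1 array left out, the regions no longer hold the same array numbers, so the difference between numbers enters the region difference. Each of these genes had both arrays numbered 2 above both numbered 1.

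Each synaptic array was also set against the non-synaptic array of the same number, although the labels do not state that these belong together. Cytl1 differed by -1.84 between the arrays numbered 1 and by -2.21 between the arrays numbered 2, and Pi16 by -1.18 and -0.86. Dpt differed by -0.26 in both. Mfap5 differed by -0.50 and -0.38 and Postn by -0.37 and -0.24, both smaller in size than their differences between the array numbers. Dcn differed by 0.19 and 0.24. Lum, at -0.14 and 0.12, and Fap, at 0.06 and -0.02, changed sign between the numbers. In all, 6 of the 9 genes were lower in the synaptic region within both numbers and 1 was higher, against 27.4% and 23.8% of all probe sets measured. These differences make up the region difference that the genes were chosen on, so nothing is read from these counts.

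The difference between array numbers was not used to choose the genes. Lum differed by 1.27 on the log2 scale, number 2 minus number 1, more than 96.6% of the probe sets measured. Postn differed by 0.87, Mfap5 by 0.86, Fap by 0.83 and Pdgfra by 0.44, and in each of the 5 genes both arrays numbered 2 lay above both numbered 1. This held for 33.0% of all probe sets, and the reverse for 28.3%. Dcn was the 1 gene of the 9 with both arrays numbered 2 below both numbered 1. For Dpt, Pi16 and Cytl1, at 0.20, 0.06 and 0.00, the numbers overlapped. The difference between numbers was larger in size than that between regions for 6 of the 9 genes, against 71.7% of all probe sets. What the number stands for is not given in the sources used here, and its part in the levels was not tested.

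**Figure D2:**
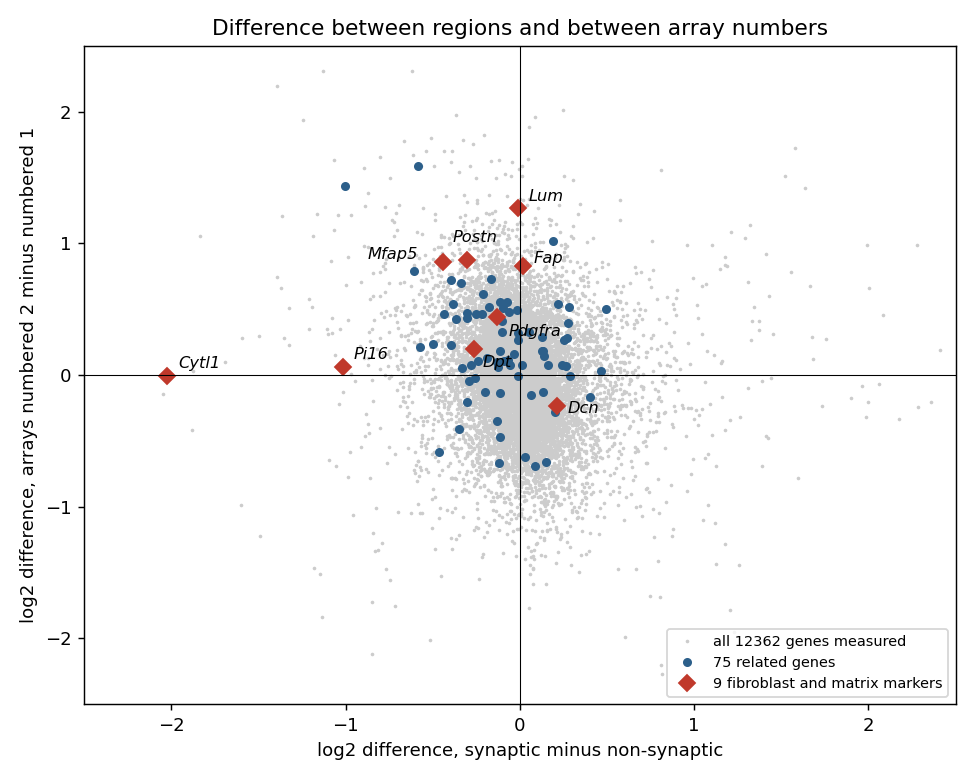
Log2 difference between regions (x axis, synaptic minus non-synaptic) against log2 difference between array numbers (y axis, number 2 minus number 1) for 12362 genes in grey, 75 related matrix genes in blue and the 9 fibroblast and matrix markers as red diamonds. Cytl1 and Pi16 lie far to the left near 0 on the y axis, Lum lies highest of the 9 near 0 on the x axis, and 18 grey genes fall outside the axes.

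Genes with several probe sets did not always give 1 pattern. The second probe set of Mfap5 had 5996 and 10234 in the synaptic region, against 7081 and 11069 in the non-synaptic region, and repeated the order of the first. The second probe set of Pdgfra had 687 and 1810 in the synaptic region, against 807 and 2091 in the non-synaptic region, with a number difference of 1.39. The third, with 962 and 871 against 1017 and 719, had the opposite number difference of -0.32. The second probe set of Dcn had 785 and 482 in the synaptic region, against 690 and 323 in the non-synaptic region, and a region difference of 0.38 ± 0.52. The second probe set of Pi16 stayed below the floor of 159 intensity units on all 4 arrays, with 60.7 and 97.7 in the synaptic region, against 40.4 and 54.5 in the non-synaptic region, so it has no order. The split of Pi16 thus rests on 1 of its 2 probe sets, and that of Cytl1 and Dpt on their single probe sets.

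**Figure D3:**
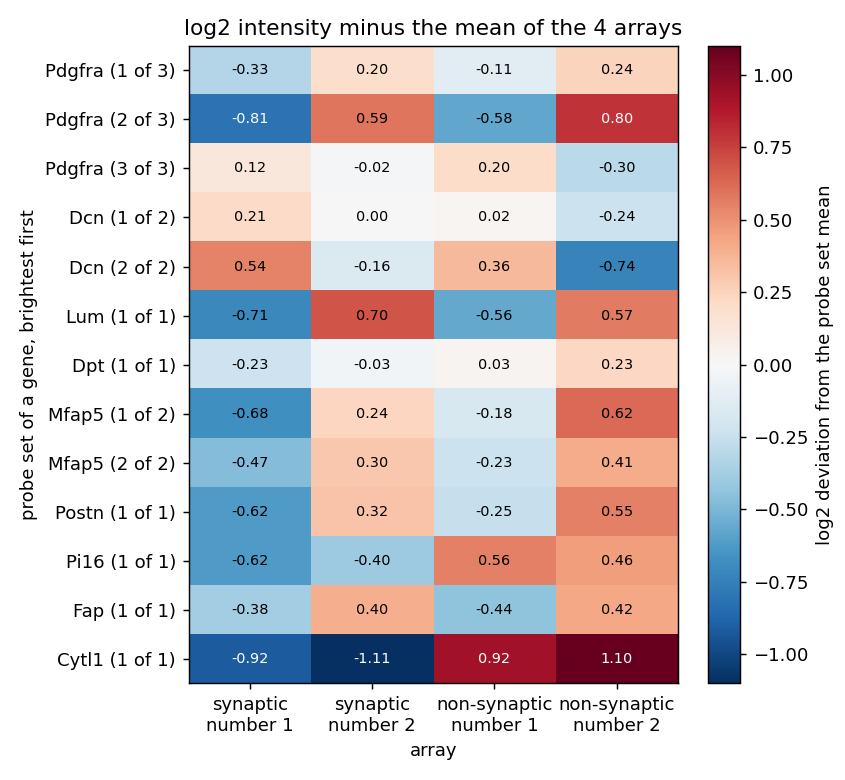
Log2 intensity minus the mean over the 4 arrays (colour and printed value) for the 13 probe sets above the filter (rows, brightest first within a gene) on each array (columns). Cytl1 and Pi16 change colour between the left and right pairs of columns, while Lum, Fap, Postn, Mfap5 and 2 of 3 Pdgfra probe sets change between number 1 and number 2. Both Dcn probe sets and the third Pdgfra probe set run against them.

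Matrix and fibroblast genes outside the 10 were read from 6 lists that cover 90 genes, of which 75 were measured. By limma, an adjusted p under 0.05 was reached by 0 of the 75 in the higher and 0 in the lower direction, against 0.0113% of all probe sets in either direction. At an unadjusted limma p under 0.05 the counts were also 0 and 0, against 0.653% of all probe sets higher and 0.332% lower. This fit left the array number out, so a difference between numbers counts as residual spread and widens the SE of a gene. A count of 0 thus does not show that the regions are alike. Both synaptic arrays lay below both others for 11 of the 75, or 14.7%, against 9.98% of all probe sets, and above for 5, or 6.67%, against 9.89%, and the median log2 difference was -0.10. Both arrays numbered 2 lay above both numbered 1 for 39 of the 75, or 52.0%, against 33.0% of all probe sets, and below for 12, or 16.0%, against 28.3%, and the median number difference was 0.18, against 0.03 for all probe sets.

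The 23 measured fibroblast markers had a median region difference of -0.13, from -0.50 to 0.49. Of these Clec3b, which encodes tetranectin, had 2524 and 3560 in the synaptic region, against 4259 and 4206 in the non-synaptic region, without overlap, at -0.50 ± 0.25. Gsn, which encodes the actin-severing protein gelsolin, and Cd248, which encodes endosialin, differed by -0.29 ± 0.15 and -0.40 ± 0.24, also without overlap. Meox1, a homeobox transcription factor, differed by 0.49 ± 0.31 with overlap. The fibrillar collagen genes Col3a1 and Col1a2 differed by -0.04 ± 0.15 and -0.01 ± 0.19. None of these passed the limma test.

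The proteoglycan relatives of Dcn and Lum had a median region difference of 0.17 over 8 measured genes. Of the 8, 0 had both synaptic arrays below both others and 0 above, against 9.98% and 9.89% of all probe sets. Aspn, which encodes asporin, had 3306 and 13296 in the synaptic region, against 6637 and 14859 in the non-synaptic region. The arrays numbered 2 were high in both regions, as for Lum, and the number difference was 1.59 on the log2 scale. Ogn, which encodes osteoglycin, differed between regions by 0.27 ± 0.21, Bgn, which encodes biglycan, by 0.22 ± 0.29 and Fmod, which encodes fibromodulin, by 0.20 ± 0.22. Ecm2 differed by -0.61 ± 0.44.

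The 17 measured genes of microfibrils and elastic fibres, the relatives of Mfap5, had a median of -0.09. Emilin2, an elastic fibre glycoprotein, had 1647 and 2209 in the synaptic region, against 2841 and 2842 in the non-synaptic region, at -0.57 ± 0.24. Fbln2, which encodes fibulin-2, and Mfap2 differed by -0.33 ± 0.18 and -0.26 ± 0.18, and these 3 genes were the ones of the list whose synaptic arrays lay below both others. The other measured probe set of Mfap2 went the other way, at 0.29. Eln, which encodes elastin, differed by -0.12 ± 0.26. Emilin1, named after its values were seen, had the largest difference of the 75 in size, with an SE of 0.90, at 161 and 1055 in the synaptic region, against 783 and 873 in the non-synaptic region. A single synaptic array was low, and the regions overlapped.

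The 13 measured matricellular genes, the relatives of Postn, had a median of -0.11. Thbs2, which encodes thrombospondin-2, had 3964 and 4946 in the synaptic region, against 3504 and 2926 in the non-synaptic region, without overlap, at 0.47 ± 0.23. Tnxb, which encodes tenascin-X, and Thbs3 lay below both others, at -0.30 ± 0.19 and -0.28 ± 0.20. Sparc, which encodes the collagen-binding protein osteonectin, differed by 0.07 ± 0.16. Of the ligands of Pdgfra, Pdgfa differed by 0.13 ± 0.21 and Pdgfc by 0.24 ± 0.24, and the second receptor Pdgfrb, known from pericytes, by -0.20 ± 0.17. Of the peptidases related to Fap and the CAP proteins related to Pi16, 10 were measured, with a median of -0.08. Dpp4, the closest relative of Fap, differed by -0.35 ± 0.30 and the CAP protein gene Crispld2 by 0.40 ± 0.21. None of the genes in these lists passed the limma test.

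Among the measured markers of other cells, the largest single differences were -5.43 in the fat cell list and 3.54 in the Schwann cell list. Both genes passed the filter through 1 region only. Of 14 fat cell markers, 12 had a probe set and 9 were measured, and both synaptic arrays lay below both others for 7 of the 9, against 9.98% of all probe sets. The median difference of these 9 was -1.19. Adipoq, Pck1 and Retn had a mean synaptic log2 value under the filter and were measured through their non-synaptic arrays. The filter thus set their direction, and nothing is read from the count or the median. By limma 1 was called lower, against 0.00755% of all probe sets. This was Adipoq, which encodes adiponectin, with 186 and 189 in the synaptic region, against 9045 and 7243 in the non-synaptic region (limma adjusted p = 0.0326). Like Cytl1 it passed the filter on low values through its non-synaptic arrays, since its synaptic log2 values of 7.54 and 7.56 lay under the filter, so it had to differ to be measured and the call adds nothing to the values. Adipoq was thus just above the floor in the synaptic region, where Pck1 and Lep were at it. The summed intensity of the 12 genes was 254008 to 273347 on the synaptic and 296608 to 324928 on the non-synaptic arrays. Fabp4 and Lpl, which other cells also express, made up most of that sum. The part of fat cells in the lower Cytl1 and Pi16 was not tested. Schwann cell markers were higher, with both synaptic arrays above both others for 10 of 11 measured, against 9.89% of all probe sets. The summed intensity of the 12 Schwann cell genes with a probe set was 113211 to 124031, against 35810 to 36650 on the non-synaptic arrays. Mbp and Pmp22 made up most of that sum. Some of the 11, Ncmap and Ugt8a among them, had non-synaptic log2 values under the filter and were measured through their synaptic arrays. The filter thus set their direction, and nothing is read from the count. By limma 1 of the 11 was called higher, Mbp, which encodes myelin basic protein (limma adjusted p = 0.0326), against 0.00378% of all probe sets. With either non-synaptic array left out, with no filter or with no intensity trend, limma called 0 probe sets, so the calls of Adipoq and Mbp were lost. The medians of the other lists were -0.13 for 10 mesothelial, 0.23 for 7 tendon, -0.10 for 8 endothelial, -0.05 for 8 smooth muscle and pericyte and -0.03 for 8 macrophage markers, with 0 called by limma in either direction. At an unadjusted limma p under 0.05 these lists held 0 higher and 1 lower, Myh11 of smooth muscle at -0.77 ± 0.30, against 0.653% and 0.332% of all probe sets.

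**Figure D4:**
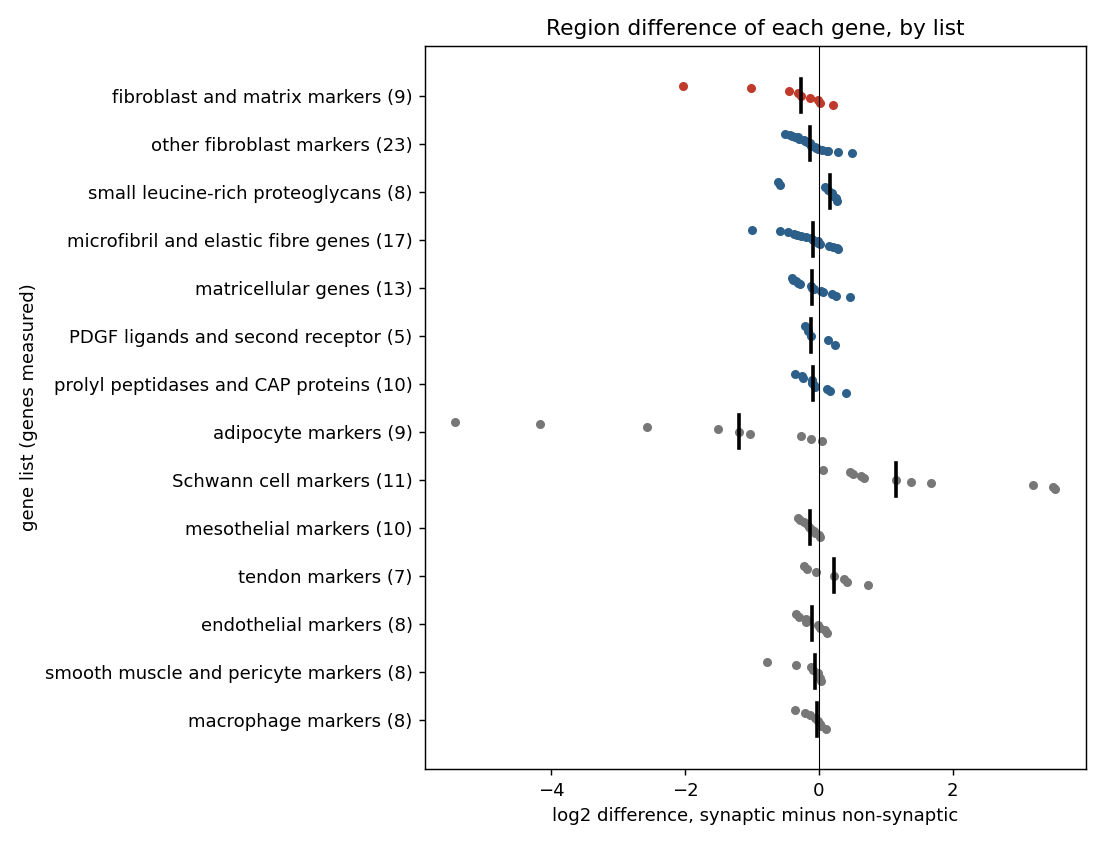
Log2 difference between regions (x axis, synaptic minus non-synaptic) of each measured gene (points), by list (rows), with a black bar at the median of the list. The related matrix lists (blue) lie close to 0, the fat cell list reaches -5.43 and the Schwann cell list 3.54, and among the 9 fibroblast and matrix markers (red) Cytl1 and Pi16 lie to the left of the rest.

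Genes whose log2 values over the 4 arrays ran closest to a marker were sought among 12361 others by Euclidean distance after centring each gene on its mean. For Cytl1 these were Cdo1, which encodes cysteine dioxygenase, at a distance of 0.31, the cytochrome gene Cyp2e1 at 0.31 and Rab11fip4 at 0.44. Their region differences were -2.05, -1.88 and -1.88. For Pi16 they were Fcna, which encodes ficolin A, at 0.09, the transcription factor gene Cebpa at 0.21 and the transporter gene Slc36a3 at 0.22, with region differences of -0.97, -1.04 and -0.80. For Pdgfra they were Crk, Gspt1 and Mcc, at distances of 0.0036, 0.018 and 0.021 and with number differences of 0.43, 0.45 and 0.43. With 4 arrays many genes can lie this close, and the distances are a description.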

How the data were processed

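The authors deposited linear intensities, with 1 value for each probe set on each array. How they were summarised and scaled is not given in the sources used here. Since every array had a 2% trimmed mean of 2500, the deposited scaling was kept. Values were floored at 158.891 (the 20th percentile over the 4 arrays) and turned into log2, which can shrink differences of weak genes. The 64 control probe sets and those with a mean log2 value under 8.87, the 40th percentile, were left out, and 26480 remained. The number of arrays limits the precision.

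Genes were named from the platform's annotation, which can be old, with symbols updated through RefSeq tables of GRCm38.p6. Of all probe sets, 34958 had 1 gene, 932 several and 9211 none, and 34754 matched RefSeq. Each gene was read from its probe set with the highest mean. The test was limma 3.58.1 (R 4.3.3; lmFit, then eBayes with a trend on intensity), 2-sided and Benjamini-Hochberg adjusted over all probe sets, at a threshold of 0.05. SEs are those of the fit, which left the array number out, so they contain the difference between numbers. The scheme was tested on simulated data.

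The genes and lists were chosen with earlier results of these data known. Named beside them were up to 4 genes of each list with the smallest unadjusted p, up to 2 with the highest mean, all fat cell and synapse genes, and the 3 nearest genes of Cytl1, Pi16 and Pdgfra. Alternatives were other normalizations, filters, floors, variance models and probe sets, a replicate block and leaving out each array.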

Additional observations from a re-analysis of the deposited data

How the results depend on the processing

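Of the 9 genes, Dcn, Dpt, Pi16 and Cytl1 kept the sign of their region difference in every setting that measured them, and 5 changed sign when single arrays were left out or, for Lum, also with median centring. Leaving out an array also mixes the difference between numbers into that between regions. Cytl1 differed by -1.85 with the floor at the 40th percentile and was not measured with the filter at the 60th. The count of genes with both synaptic arrays below both others lay between 3 and 7 and their median difference between -0.71 and 0.11 over the fits that left out 1 array, in which a region of 1 array overlaps less easily. In the other settings the count was 2 or 3 and the median between -0.26 and -0.20.

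Over all probe sets, the count called higher, 1 in the report, was 6 with median centring, 0 when nothing was filtered, 3 under the 60th percentile filter and 0 with no intensity trend. The count called lower, 2 in the report, was 0 when nothing was filtered, 1 with the higher floor and 0 with no intensity trend. With 1 array left out the counts ran between 0 and 6 higher and between 0 and 5 lower, with a lone array assumed to vary like the others. The cause was not tested. In the related lists 0 genes were called higher and 0 lower by limma in any setting tried, the replicate block included, while the fit of the report also held 0 and 0 of them with an unadjusted p under 0.05.

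The differences between the numbers correlated between regions at 0.63 over 26480 probe sets, a hint from the data that the number pairs the arrays. With the replicate block 56 probe sets were called higher and 18 lower. Weak signal, close to the floor, limits the synaptic level of Cytl1 and the second Pi16 probe set.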
